A study of Arabidopsis thaliana with 5 samples.

Results

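The comparison described here sets whole Arabidopsis seedlings held for 60 min in 0.2% oxygen against seedlings in air. It was chosen by treatment and time, as the array of 60 min of hypoxia minus the array of air at 0 min, with the array of air at 240 min as a second control. It thus uses 2 arrays of the 5 in the series, plus 1 further air array. The remaining arrays, 30 and 240 min of hypoxia, are quoted only as values beside a result.

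All seedlings were of the ecotype Col-0 with no transgene or mutation named, and were 14 days old. They had grown at 22 °C with 16 h of light on upright agar plates of inorganic medium. Hypoxic seedlings lay in plastic bags flushed with a gas of 0.2% oxygen and 99.8% nitrogen, and nothing in the labels says whether the air seedlings were bagged or flushed. RNA came from the entire seedling, so shoot and root were mixed, and each treatment and time has 1 array. There is therefore no replicate error and no p-value for any difference below, and nothing says how many seedlings were pooled on an array.

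Plants short of oxygen lose most of their respiratory ATP. They turn to glycolysis and ethanolic fermentation, in which pyruvate decarboxylase and alcohol dehydrogenase regenerate NAD+ for glycolysis, and they switch on a small core of genes through the oxygen-labile group VII ethylene response factors. Energy and sugar shortage also brings up genes of amino acid and reserve breakdown, while costly processes such as ribosome and protein synthesis are held back, in part by keeping mRNAs off the ribosomes.

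Values are RMA levels on the log2 scale, so a difference of 1 is 2-fold. A probe set was counted when it differed by 1 or more and reached 5.13, the median of all values tested, on at least 1 array compared. Of 8247 probe sets tested, 46.0% could be named, for 3600 genes. Levels below about 5.5 lie near the floor of the measurement, where RMA compresses differences. In RNA from whole seedlings, fewer cells of a type and less RNA per cell cannot be told apart.

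After 60 min of hypoxia, 106 probe sets were higher than in 0 min air and 101 were lower, which is 2.38% and 2.27% of the 4446 that reached the level. The air arrays differed far less from each other, with 15 probe sets (0.337%) higher and 10 (0.225%) lower at 240 min than at 0 min. Against 240 min air, 82 probe sets (1.82%) were higher at 60 min and 83 (1.84%) were lower. Both air arrays were passed by 72 probe sets on the higher side (1.54%) and 60 on the lower (1.28%). Over all probe sets tested, the differences had an SD of 0.363 from 0 min air and 0.330 from 240 min air, against 0.221 between the air arrays, and their median was 0.00 in each case.

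**Figure D1:**
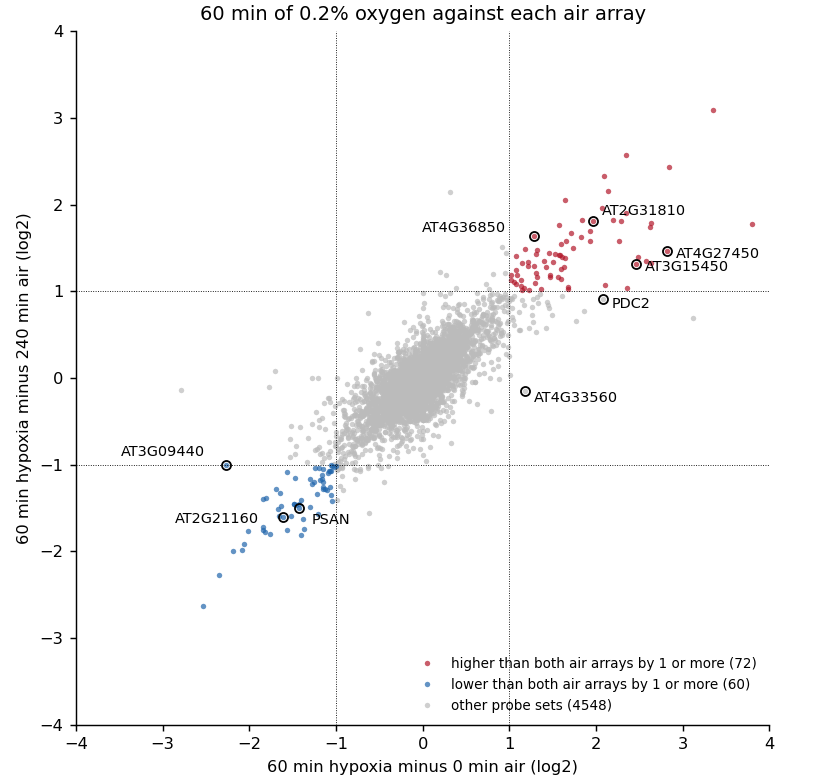
Each point is a probe set that reached the level, placed by 60 min hypoxia minus 0 min air (x axis, log2) and minus 240 min air (y axis, log2), with dotted lines at a difference of 1 either way. The 72 red and 60 blue points passed 1 from both air arrays, while PDC2 and AT4G33560 passed it from 0 min air only.

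The choice of air array mattered on both sides. Of the 106 probe sets above 0 min air, 33 stayed above 240 min air by less than 1 and 1 did not stay above it. Within the 106 were 13 of the 15 probe sets that were also higher in 240 min air than in 0 min air. Of the 101 probe sets below 0 min air, 38 stayed below 240 min air by less than 1 and 3 did not stay below. Among the 101 were 6 of the 10 that were lower in 240 min air than in 0 min air. Both differences subtract the same 0 min air array, so an outlying value on that array alone places a probe set in both groups. These overlaps therefore do not show a change over time in air. By any amount, 33.6% of all named genes lay above both air arrays and 31.6% below both, which is the background for the counts of list members given later. For the genes that follow, the difference from the nearer air array is the one less open to a single control.

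The named genes that rose furthest above both air arrays included genes of amino acid and starch metabolism, a stress transcription factor and members of several other families. AT2G31810 encodes the regulatory subunit of acetolactate synthase, which makes the precursors of branched-chain amino acids. It read 8.74 at 60 min of hypoxia, against 6.78 in 0 min air and 6.93 in 240 min air, and was 3.52-fold above the nearer air array. MCCA, the biotin-carrying subunit of the 3-methylcrotonyl-CoA carboxylase of leucine breakdown, read 7.28 at 60 min of hypoxia, against 5.35 and 5.58 in 0 and 240 min air, or 3.25-fold above the nearer. Synthesis and breakdown of this amino acid group were thus each represented by 1 gene well clear of both controls.

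A wider list of branched-chain amino acid metabolism was drawn up with these values in view, and 9 of its 38 genes were measured. Of these, 6 lay above both air arrays and 1 below both, where 33.6% and 31.6% of all named genes did so. The 1 below both was AT3G58610, at −0.17 and −0.01. The median was 0.38 from either air array, and AT2G31810 and MCCA alone passed 1. Of the 9 genes, 6 reached the level, so some of these signs come from values near the floor. ETFQO, the oxidoreductase that passes electrons from branched-chain amino acid breakdown to ubiquinone, read 5.86 at 60 min of hypoxia, against 4.95 and 5.04 in air. MCCB, the partner subunit of MCCA, read 4.66 in hypoxia, which was 0.07 above 0 min air and level with 240 min air, near the floor where a difference could be hidden. ATBCAT-5, an aminotransferase of the group, read 5.88 in hypoxia, against 6.03 and 5.88 in air.

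Genes known to be induced by carbon and sugar starvation lay mostly above air. The 5 measured members of 42 on this list had a median difference of 0.91 from 0 min air and 0.92 from 240 min air. Above both air arrays lay 4 of them, as did 33.6% of all named genes. Past 1 from 0 min air rose 2, AT3G15450 and MCCA, as did 2.38% of probe sets that reached the level. MCCA, ETFQO and MCCB are also on the branched-chain list above, so the lists are not independent. AT3G15450, of the aluminium-induced family with YGL and LRDR motifs, read 13.43 at 60 min of hypoxia, against 10.97 in 0 min air and 12.12 in 240 min air. It was 2.48-fold above the nearer air array, but 240 min air was itself 1.15 above 0 min air. ALDH7B4, an aldehyde dehydrogenase of the stress response, read 7.31 in hypoxia, against 6.55 and 6.39 in air. PWD, a kinase that phosphorylates starch granules for their breakdown, read 7.82 at 60 min of hypoxia, against 6.54 and 6.53 in air, a 2.43-fold difference from the nearer. On a list of starch genes also drawn up with the values in view, PWD alone of 5 measured members of 36 passed 1, and the median was −0.05 from 0 min air.

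Core low-oxygen genes were represented by 5 measured members of 53. Of these, 3 rose past 1 from 0 min air, as did 2.38% of probe sets that reached the level. The median was 1.18, but it was 0.56 from 240 min air, and the air arrays themselves differed by a median of 1.16 over the list. AT4G27450, known as a hypoxia-responsive protein and related to AT3G15450, read 11.81 at 60 min of hypoxia, against 8.99 in 0 min air and 10.35 in 240 min air. It is the 1 member that passed 1 from both, by 2.82 and 1.46. PDC2, a pyruvate decarboxylase of ethanolic fermentation, read 7.85 in hypoxia, against 5.78 and 6.94 in air, so that it rose by 2.07 from 0 min air and stood 0.91 above 240 min air. AT4G33560, of a wound-responsive family, read 8.48 in hypoxia, against 7.30 in 0 min air and 8.63 in 240 min air. Its difference was 1.18 from the first air array and −0.15 from the second. AT2G17850, a rhodanese family protein, was 0.85 and 0.56 above the air arrays at a level near the floor. AT4G17670, also near the floor, was within 0.12 of both air arrays.

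The list of fermentation and glycolysis, with 8 measured members of 52, had medians of 0.01 and 0.04 and PDC2 alone passed 1, from 0 min air. AT1G56190, a phosphoglycerate kinase, read 7.72 at 60 min of hypoxia, against 6.91 and 6.98 in air. AT2G36580, a pyruvate kinase, was 0.58 above 0 min air and 0.12 above 240 min air. The subunits of the pyrophosphate-dependent phosphofructokinase, AT1G20950 and AT1G12000, differed from 0 min air by −0.17 and −0.21, and from 240 min air by 0.08 and −0.21. The cytosolic phosphoglucose isomerase AT5G42740 was at −0.47 from the first air array but level with the second, and it and AT1G20950 were at the floor. AT4G17260, a lactate dehydrogenase, lay between the air arrays at 5.26 in hypoxia, against 5.08 and 5.48 in air, all near the floor. AT4G26390, another pyruvate kinase, was at the floor. Outside this list, the fructokinase AT2G31390 read 9.28 in hypoxia, against 7.81 and 8.10 in air, and so rose from both.

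Of the early stress transcription factors, 4 of 38 were measured, with medians of 0.57 and 0.73. All 4 lay above both air arrays, as did 33.6% of all named genes, and 1 of them by no more than 0.01. WRKY53, a regulator of senescence and defence, was the 1 that passed 1, at 6.62 in hypoxia against 4.89 and 5.12 in air. The zinc finger repressor STZ read 7.47 in hypoxia, against 6.67 and 6.50 in air, with its dimmer second probe set 0.48 and 0.45 above them. WRKY22 was 0.33 and 0.50 above air, and WRKY6 differed by 0.01 from each. For the WRKY family as a whole, the 8 measured members had medians of 0.05 and 0.10.

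**Figure D2:**
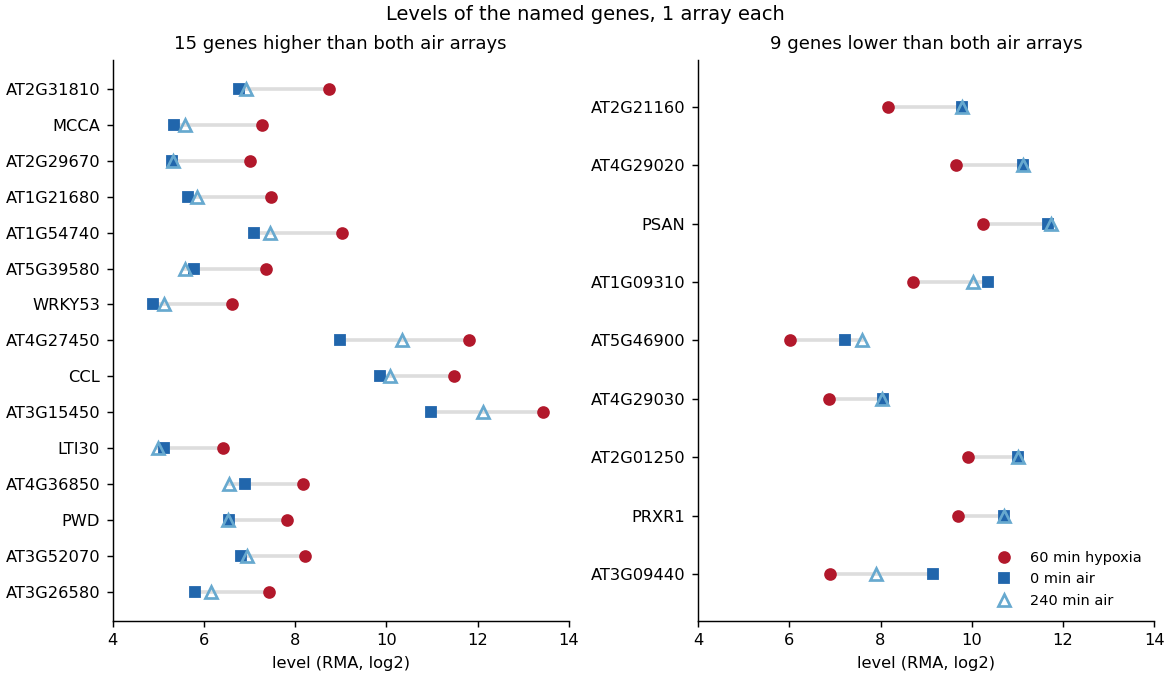
RMA levels (x axis, log2) of the 15 named genes furthest above both air arrays and the 9 below both, each on 1 array of 60 min hypoxia (red circle), 0 min air (blue square) and 240 min air (open triangle), ordered by the difference from the nearer air array. AT3G15450, AT4G27450 and AT3G09440 have air arrays that lie more than 1 apart, whereas for the other genes the air symbols lie closer together.

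The dehydrins and cold-regulated proteins, which protect membranes and proteins under water loss, lay mostly above air. LTI30 read 6.43 at 60 min of hypoxia, against 5.12 and 4.99 in air, and was the 1 of 6 measured members of 21 that passed 1. AT1G54410, another dehydrin, read 11.57 in hypoxia, against 10.68 and 10.62 in air, just short of the threshold. COR47 was 0.42 and 0.74 above air at its brightest probe set and 0.81 and 0.37 above at its second. The medians were 0.39 and 0.53, and 5 of the 6 lay above both air arrays, against 33.6% of all named genes, with KIN2 above 240 min air by 0.02. A broader family of late embryogenesis abundant proteins, with 7 members measured, had medians of 0.02 and 0.00.

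Clock-related genes had 2 measured members of 20, both above both air arrays, as were 33.6% of all named genes. CCL, whose mRNA cycles over the day, read 11.48 at 60 min of hypoxia, against 9.87 and 10.09 in air, a 2.63-fold difference from the nearer. GI, a component of the evening loop of the clock, read 8.93 in hypoxia, against 8.29 and 8.60 in air. Its 3 dimmer probe sets were at 0.98 and 0.50, at 0.59 and 0.41, and at −0.04 and −0.31, the last near the floor. The hour at which each sample was taken is not given in the labels, so time of day was not tested as a source of these differences.

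The rest of the 15 genes furthest above air are spread over unrelated families. AT5G39580, a class III peroxidase, read 7.35 at 60 min of hypoxia, against 5.78 and 5.58 in air. AT2G29670 and AT3G26580, both with tetratricopeptide repeats, were 1.68 and 1.28 above the nearer air array. AT1G54740 read 9.02 in hypoxia, against 7.09 and 7.44 in air. AT1G21680 was 1.63 above the nearer air array, AT4G36850, of the PQ-loop family, 1.28, and AT3G52070 also 1.28. A further 10 genes passed 1 from both air arrays by smaller amounts, from 1.21 for the amino acid transporter family member AT2G40420 to 1.02 for the osmotin gene OSM34. They include THIC, needed for thiamine synthesis, at 6.81 in hypoxia against 5.44 and 5.78 in air, and AT1G03220, of the aspartyl protease family, at 11.30 in hypoxia against 9.20 and 10.23 in air. AT2G16586 read 9.60 in hypoxia, against 7.24 in 0 min air and 8.57 in 240 min air, so that 2.36 separated it from the first air array and 1.04 from the second. AT1G13930 rose by 1.16 above the nearer air array, AT2G30600, with a BTB/POZ domain, by 1.13, AT4G32340 by 1.08 and the chloroplast RNA-binding protein gene AT2G37220 by 1.08.

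On the lower side, 9 named genes fell below both air arrays by 1 or more. The lowest was AT2G21160, the alpha subunit of the complex that sits beside the translocon where proteins enter the endoplasmic reticulum. It read 8.17 at 60 min of hypoxia, against 9.78 in each air array, a 3.05-fold difference, and its second probe set gave −1.63 and −1.47. This gene therefore has the same direction and nearly the same size at both of its probe sets.

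AT2G21160 is 1 of 6 measured members of 28 on the list of protein folding and translocation in the endoplasmic reticulum, and the only one past 1. With it included, 5 of the 6 were below both air arrays, against 31.6% of all named genes, and the medians were −0.46 and −0.35. AT2G34250, a subunit of the translocon channel, read 7.76 in hypoxia, against 8.35 and 8.23 in air. The calnexin gene AT5G07340 read 5.74 in hypoxia, against 6.29 and 6.08 in air. AT2G01720, of the oligosaccharyltransferase, differed by −0.11 and −0.07, and AT1G78720, another channel subunit, was 0.07 and 0.29 above air. CRT1b, a calreticulin, was 0.37 below 0 min air at the floor, and its other probe sets were at the floor as well. Just outside these lists, AT2G44660, an enzyme of the glycan chain added to proteins in the same compartment, read 6.70 in hypoxia, against 7.68 and 7.52 in air.

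AT3G09440, a cytosolic HSP70 chaperone, had the largest drop of a named gene from 0 min air. It read 6.88 at 60 min of hypoxia, against 9.15 in 0 min air and 7.89 in 240 min air, so its −2.27 from the first became −1.005 from the second. A second probe set gave −0.32 and 0.09. Members of this family are close in sequence and their signals can mix on the array. Of the other 3 measured HSP70 and co-chaperone genes, Hsp70-2 differed from 0 min air by 0.06, AT4G16660 by −0.04 and Hop3 by −0.24, all near the floor. From 240 min air these differences were 0.20, 0.00 and −0.69. The small heat shock proteins, 6 measured of 17, had medians of 0.06 and 0.04 and none passed 1.

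The photosystem I subunit PSAN read 10.25 at 60 min of hypoxia, against 11.68 and 11.75 in air, a 2.69-fold difference from the nearer. PSAE-1, another subunit of that photosystem, was 0.52 and 0.42 below air at its brightest probe set, 0.53 and 0.46 below at the second and at −1.40 and −1.81 at the third and dimmest. With quantile normalization repeated, the first of these became −0.21. Light-harvesting and Calvin cycle genes did not share that direction. PRK, phosphoribulokinase, read 10.59 in hypoxia, against 10.04 and 10.08 in air, and LHB1B2 read 14.05, against 13.69 in each. RCA, the Rubisco activase, was 0.22 and 0.11 above air. For the 8 measured members of 56 the medians were 0.25 and 0.06, and PSAN alone passed 1. LHCB4.1 differed by −0.04 and −0.01 at a level of 13.99 in hypoxia.

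AT2G01250, a protein of the large ribosomal subunit of the L7 family, read 9.92 in hypoxia, against 11.02 in each air array. No other of the 48 ribosomal protein genes measured, on a list of 206 drawn up afterwards, passed 1. Among those 48, 27 lay below both air arrays and 7 above both, where 31.6% and 33.6% of all named genes did so. The differences were small, with medians of −0.13 and −0.10. AT2G19750 was the next lowest, at 9.05 in hypoxia against 9.70 and 9.45 in air.

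The 5 histone genes taken in by the family pattern all lay below both air arrays, as did 31.6% of all named genes. None passed 1, and the medians were −0.66 and −0.60. HTB2, a histone H2B, read 8.48 at 60 min of hypoxia, against 9.34 and 9.16 in air. The histone H3 genes AT1G09200 and AT5G65360 read 9.18 and 8.90 in hypoxia, against 9.84 and 9.66 in 0 min air and 9.86 and 9.50 in 240 min air. These genes are near identical, so their probe sets are not independent. The linker histone HIS1-3 and the core histone HIS4 differed by −0.07 and −0.05 from 0 min air. AT2G30620, a linker histone gene that the family pattern did not take in, went the other way at 9.92 in hypoxia, against 8.90 and 8.99 in air.

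**Figure D3:**
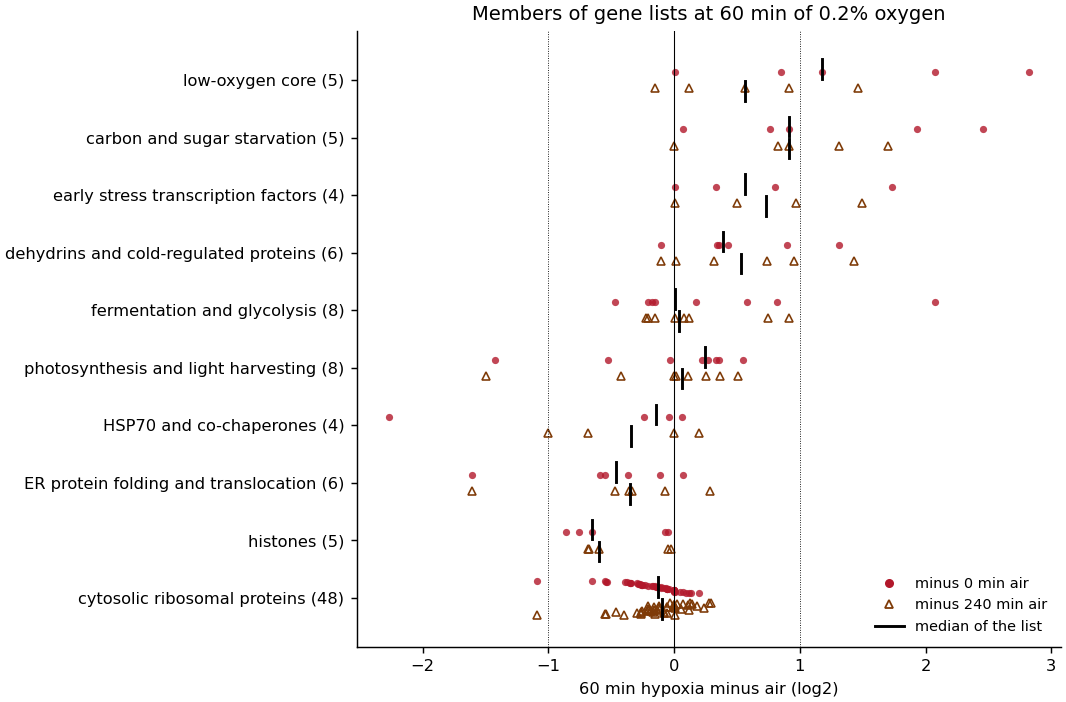
Differences of the brightest probe set of each measured member (log2) for 10 lists, with 60 min hypoxia minus 0 min air as red circles above and minus 240 min air as open triangles below each line, black bars at the medians and dotted lines at 1 either way. The number measured stands in brackets; the last list was drawn up with the values in view. Members of the starvation list lie within 0.01 of 0 or above it, and the 5 histone genes of the family pattern lie below it.

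The remaining genes that fell are of several families. AT1G09310, of the family with domain DUF538, read 8.71 at 60 min of hypoxia, against 10.36 and 10.04 in air. The glycine-rich protein gene AT4G29020 read 9.65 in hypoxia, against 11.11 in each air array, and its neighbour on the chromosome, AT4G29030, read 6.87, against 8.05 and 8.04. They were the only neighbours among the named genes that passed 1 from both air arrays. AT5G46900, of the lipid transfer family, read 6.02 in hypoxia, against 7.23 and 7.59 in air. PRXR1, a class III peroxidase, read 9.70 in hypoxia, against 10.71 and 10.72 in air. The class III peroxidases as a list had medians near 0. On a list of 74 drawn up afterwards, 46 were measured, 33 of them reached the level, and the medians were −0.01 and −0.04. From 0 min air 1 rose and 1 fell past 1, as did 2.38% and 2.27% of probe sets that reached the level. Of the 46, 21 lay below both air arrays and 14 above both, where 31.6% and 33.6% of all named genes did so.

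A few further genes lay below both air arrays but did not pass 1 from both. Each stood nearer to 240 min air, some only slightly. AT5G27120, of a nucleolar protein family of ribosomal RNA processing, read 6.25 in hypoxia, against 7.48 in 0 min air and 6.65 in 240 min air. The subtilase AT2G05920 read 7.62 in hypoxia, against 8.81 and 8.50 in air. GT72B1, a glucosyltransferase that acts on phenolic compounds and foreign chemicals, read 5.14 in hypoxia, against 6.27 and 5.73 in air. UGT74B1, which adds glucose in glucosinolate synthesis, was at −0.98 and −0.86 and near the floor at 60 min. The 22 measured glycosyltransferases of their family had medians of 0.01 and −0.01. Also in this set were AT2G14910 at −1.22 and −0.82, AT3G16370, a GDSL lipase family gene, at −1.08 and −0.73, and AT2G01600 at −0.95 and −0.70. AT1G05370 was at −0.94 and −0.81 and near the floor.

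Higher genes whose size depended on the air array were AT2G37750, at 1.45 and 0.84, AT3G54880, at 1.44 and 0.88, and AT1G03610, at 1.27 and 0.91. STOMAGEN, a peptide that promotes stomata, shows what the second control can hold. It read 7.14 at 60 min of hypoxia and 6.82 in 0 min air, but 4.99 in 240 min air, so that 2.15 from the second air array stands beside 0.31 from the first.

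Near the threshold of 1 from the nearer air array, OSM34 and THIC were just inside at 1.02 and 1.03, and AT2G22080 and AT2G30620 just outside at 0.94 and 0.93. On the lower side AT3G09440 and PRXR1 were just inside, at −1.005 and −1.01, and AT1G23130 and AT4G11190 just outside, at −0.93 and −0.90.

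The remaining lists chosen by locus had no member past 1 from 0 min air. Of the family patterns not given above, only that of pathogenesis-related, osmotin, chitinase and glucanase proteins had one. This was OSM34, at 1.15 and 1.02, while the 4 measured members had medians of 0.00 and −0.03. The nitrate list had 2 of 21, AT2G26690 at −0.83 and −0.64 and AT3G21670 at −0.57 and −0.26. For ethylene, 2 of 24 were measured, EIN3 at −0.25 and −0.46 and the ACC oxidase AT1G12010 at −0.34 and −0.22. The auxin and expansin list, 6 of 31, had medians of 0.12 and 0.32, with EXPA4 at −0.53 from each air array and EXPA8 at −0.52 and 0.41. The 3 measured genes of alternative respiration and oxidative stress were all near the floor.

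Most of the strongest differences carry no gene name. Of the 72 probe sets above both air arrays 46 are unnamed, with differences of 1.01 to 3.09 from the nearer air array (median 1.35). Of the 60 below both, 49 are unnamed, from −2.54 to −1.005 (median −1.22). Named genes also include CP5 and PSAE-1, which passed only at a dimmer probe set. For CP5 this was 1.64 and 1.39, against −0.22 and −0.31 at its brightest, so its probe sets disagree.

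At each other time of hypoxia taken singly, most of the probe sets that stood out at 60 min differed from air by less than 1. The rest moved both ways, which brings the medians near 0. How many passed 1 at either time, and the share of all probe sets that did, were not counted. The 72 above both air arrays had a median of 0.09 at 30 min relative to 0 min air and −0.28 at 240 min relative to 240 min air. At 30 min 13 of them were 1 or more above air and 12 were 1 or more below, and at 240 min the counts were 9 and 18. In 59 of the 72 the 60 min array was above both other hypoxic arrays. For the 60 below both air arrays, the medians were −0.10 at 30 min and 0.22 at 240 min, with 8 and 5 past 1 the same way and 7 and 5 the other way. In 56 of the 60 the 60 min array was below both other hypoxic arrays. These probe sets were picked on the 60 min array, which by itself favours that array as the extreme one.

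Among the 25 named genes above both air arrays, 20 had their highest level of all 5 arrays at 60 min, and 7 of the 9 below both had their lowest. These genes were picked for lying past both air arrays at 60 min, which by itself favours that array as the extreme one. No such count was made over all genes. LTI30 was not highest at 60 min, at 5.64, 6.43 and 6.82 after 30, 60 and 240 min of hypoxia. PWD read 6.29, 7.82 and 7.51 at those times. PSAN was as low at 30 min as at 60 min, with 10.23 and 10.25, and read 11.91 at 240 min.

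**Figure D4:**
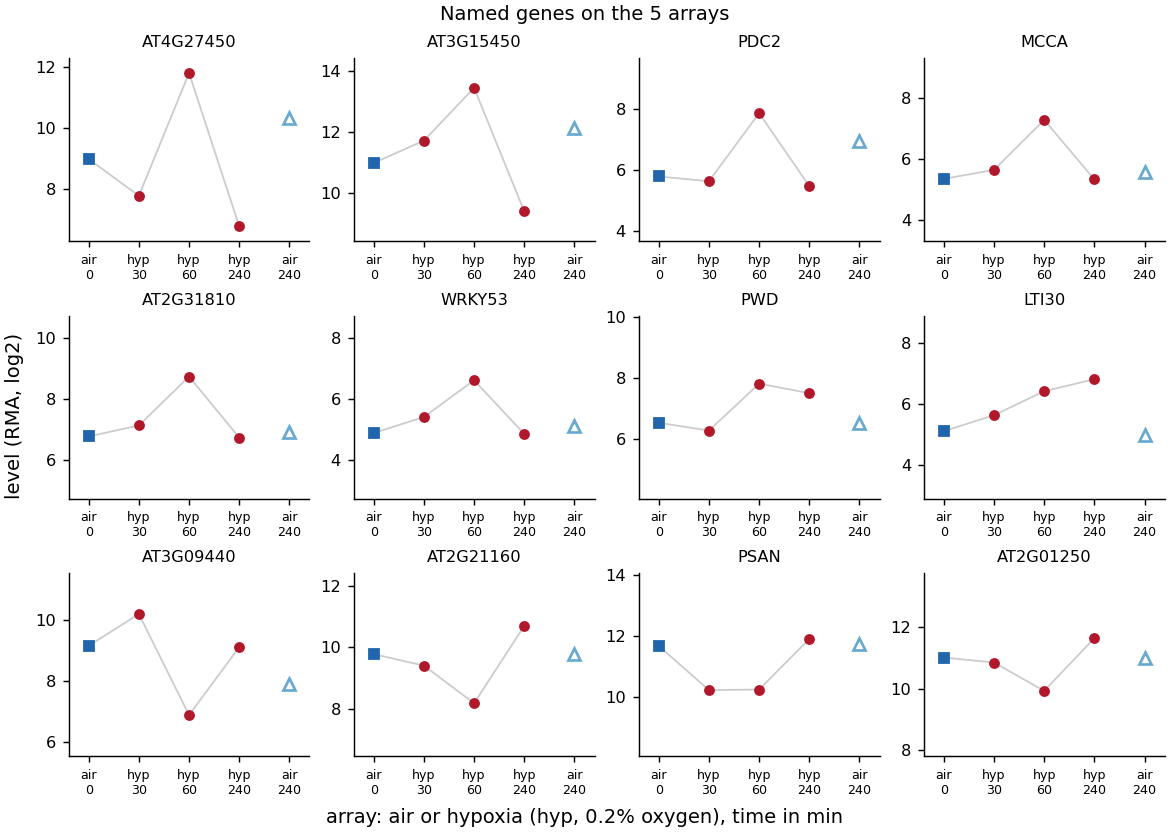
Levels (y axis, RMA log2, each panel spanning 6 units) of named genes on the arrays of 0 min air, 30, 60 and 240 min of hypoxia (hyp) and 240 min air (x axis), with 1 array at each point and a grey line joining 0 min air to the hypoxic times. AT4G27450, AT3G15450, PDC2, MCCA, AT2G31810 and WRKY53 are highest at 60 min, whereas LTI30 is highest at 240 min. The genes were picked on their difference at 60 min, which favours an extreme there.

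Array quality and tissue mix were read from control probe sets and markers. The 5 columns had medians between 5.12 and 5.14, and across probe sets, which share probes and arrays and replace no replicate, r was 0.975 and 0.979 between 60 min of hypoxia and the air arrays, against 0.991 between the air arrays. The 9 hybridisation control probe sets differed by a median of −0.20 from 0 min air and −0.41 from 240 min air. The 3′ probe set of GAPDH minus its 5′ probe set was −0.23 at 60 min of hypoxia, against 0.57 and 0.55 in air. These differences run alongside the comparison, and their part in the results was not tested. Shoot markers, 6 measured of 24, summed to 15.42 on the log2 scale at 60 min of hypoxia, against 15.37 and 15.43 in air. That sum rests on the brightest members, RCA at 14.57 and LHCB4.1 at 13.99 in hypoxia. Single members went both ways, with PSAN at −1.43 and −1.49 and PRK at 0.55 and 0.51. Of 20 root markers 1 was measured, the peroxidase AT5G66390, near the floor at 4.99 in hypoxia against 4.66 and 4.96 in air, so the share of root could not be followed.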

How the data were processed

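Levels are log2 values made by the authors with RMA, per the submitters' processing notes. RMA corrects background, quantile-normalizes the arrays together and summarises probes by median polish, so values can be exactly equal on different arrays (6.09% of probe sets between 60 min of hypoxia and 0 min air). Which RMA software and version the authors ran is not given in the sources used here, and control probe sets, of which there were 50, were left out. This left 8247 for testing. Of 3864 listed in the platform annotation, 3794 had 1 gene and 70 several. Of the 3794, 3792 matched a RefSeq TAIR10.1 locus, giving 3600 genes. Probe sets ending in _s_at can also bind related transcripts, which applies to MCCA, CCL, LTI30, OSM34, PRXR1, AT2G16586, AT2G37220 and AT3G26580.

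Differences were computed from the deposited values in Python 3.11.15 with pandas 2.3.3 and numpy 2.4.6, and no test was run, since each group has 1 array. The counting rule was run on simulated shifts, all well past the threshold and on bright probe sets, as a check of the code only. That run says nothing of differences near 1 or near the floor. A gene with several probe sets was read at the one with the highest mean. The genes named were up to 15 each way past 1 from the nearer air array, the 10 furthest each way from 0 min air alone beyond these, and members of the lists. CP5, AT2G30620 and any other gene outside this rule were picked with their values in view. The members, the 14 lists (448 loci, 66 measured) and the 24 family patterns, 9 of them with 0 members, were chosen with earlier results of these data known, and 4 lists were written after the values were seen. Alternatives covered the control array, the scaling, the level, the size of the difference and the summary over probe sets. Promoter sequences were not analysed here.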

Additional observations from a re-analysis of the deposited data

Results flagged for a closer look

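Several named genes that differed by 1 or more between 60 min of hypoxia and 0 min air moved by 1 or more the opposite way at another time of hypoxia. Each value rests on single arrays, and the difference between times was not tested.

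Of the genes higher at 60 min, AT4G27450 was at −1.20 after 30 min relative to 0 min air, and at −3.56 after 240 min relative to 240 min air. AT4G33560 was at −1.43 and −3.99 in the same comparisons. At 240 min only, AT1G03220 was at −3.68, AT3G15450 at −2.73, AT1G03610 at −1.88, AT1G54740 at −1.65 and PDC2 at −1.48. At 30 min only, CCL was at −1.55, AT4G36850 at −1.47 and AT3G52070 at −1.17.

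Of the genes lower at 60 min, PRXR1 was 1.54 above air at 30 min and 1.02 above at 240 min. AT3G09440 was 1.04 and 1.22 above at those times, and AT5G46900 was 2.55 above at 30 min. Differences between paired arrays were wider at these times, with an SD of 0.496 at 30 min and 0.622 at 240 min.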

How the results depend on the processing

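With a log2 difference of 1.5 in place of 1, the counts were 48 probe sets above and 28 below 0 min air, and 23 above and 15 below both air arrays. With a 1.5-fold difference in place of 2-fold they were 277, 341, 188 and 192. Both settings change the counts by construction. With 240 min air or the mean of both air arrays as control, the columns centred, quantile normalization repeated, no level or a level of 7, every count stayed within 1.5 times. The median of the low-oxygen core fell to 0.56 with 240 min air as control and 0.71 with the mean of both air arrays. With 240 min air as control 7 of 86 named genes had the other sign, and AT4G33560, at −0.15, was the 1 of them that had passed 1 from 0 min air. With that control 39 genes besides AT4G33560 moved by more than 0.221, the SD between the air arrays, and some of the 7 are among them. The same held for 17 genes with the mean of both, and for PSAE-1, to −0.21, with quantile normalization repeated. No paired analysis was possible because each treatment and time has 1 array, and for the same reason no array could be left out within a group. Of 448 listed loci 66 were measured here, and differences below about 5.5 are compressed.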
